A study of Rattus norvegicus with 18 samples.

Results

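The 47 probes described here are those that the arrays' own annotation places on chrM, the rat mitochondrial genome in build rn4, out of 41012 non-control probes on a 60-base Agilent rat array. The rule uses their position and no measured value: 29 lie on the plus strand and 18 on the minus strand. The arrays compared WHP rats, selected for high ethanol preference, with WLP rats, selected for low preference, in 3 brain areas: the nucleus accumbens, hippocampus and prefrontal medial cortex. All animals were alcohol-naive males, caged with their brothers and killed by decapitation, and no age is given in the labels. Each pool held equal amounts of total RNA from 3 rats of 1 strain. Each area had 3 pool pairs (1 WHP and 1 WLP pool), and each pair was hybridised on a pair of arrays with the dyes swapped, 18 arrays in all. Every ratio below is a log2 ratio of WHP over WLP, so that positive values mean more signal in WHP, and the dye-swapped arrays of a pair were averaged to give 9 values per probe. The labels do not say whether the pools of the different areas came from the same rats, and the p-values measure the spread between pools of 3.

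The mitochondrial genome is a small circle that carries the genes of the mitochondrial ribosomal RNAs, a set of transfer RNAs and core subunits of the respiratory chain. Both strands are transcribed from the control region, which contains the D-loop, as long precursors that are then cut into single RNAs. Transcripts of one strand hold both ribosomal RNAs and nearly all of the mRNAs. Transcripts of the other strand hold 1 mRNA (ND6) and several transfer RNAs, and are otherwise mostly antisense RNA that is degraded quickly. The proteins that copy, transcribe and package this genome, among them the polymerase Polrmt and the packaging factor Tfam, are encoded in the nucleus and imported. Neurons rely on respiration for most of their ATP, and mitochondrial RNA is abundant in brain tissue.

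The 29 plus-strand probes follow the order of the sense genes. The files name 18 of them after 7 protein-coding transcripts, with 2 probes in ND2, 1 in COX1, 8 in COX2, 1 in ATP6, 1 in COX3, 1 in ND5 and 4 in Cytb. Further probes lie in the region of the small ribosomal RNA (6 probes between 154 and 591), in the region of the large ribosomal RNA (2 probes, annotated in the files as CDK109 mRNA) and in the D-loop (1 probe). The last 2 plus-strand probes, at 6573 and 7537, carry expressed-sequence tags only. Of the minus-strand probes, most bear the names of clones or expressed-sequence tags, 4 those of nuclear mRNAs, and probe 8298 that of a mitochondrial ATPase record. The files hold 2 versions of this annotation, and 43 probes are on chrM in both, 1 in the first only and 3 in the second only. All 3 of the latter carry names of nuclear mRNAs (Tpm3, cis-Golgi p28 and a carboxyl methyltransferase). Probe 7537 overlaps COX2 7525 by 48 bases on the map, but the longest run of letters they share is 6 bases, so its placement and its letters disagree.

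The sequences that the results turn on are given 5′ to 3′ as the files hold them. The first 4 are COX2 probes of 1 transcript, shown because the second and the third gave ratios unlike those of their neighbours. Capitals mark the 20 bases that the first and the second share.

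COX2 7326 (A_44_P463071, chrM:7326-7385, plus): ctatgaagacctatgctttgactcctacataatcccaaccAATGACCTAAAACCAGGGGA
COX2 7366 (A_44_P463063, chrM:7366-7425, plus): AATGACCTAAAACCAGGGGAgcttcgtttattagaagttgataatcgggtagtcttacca
COX2 7525 (A_44_P463065, chrM:7525-7584, plus): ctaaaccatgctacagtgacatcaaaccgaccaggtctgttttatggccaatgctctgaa
COX2 7585 (A_44_P463064, chrM:7585-7644, plus): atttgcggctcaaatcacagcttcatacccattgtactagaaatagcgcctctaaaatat

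The next pair of COX2 probes overlaps by 51 bases, of which 49 are equal. Capitals mark the positions A7317T and A7319C (chrM coordinates, with the base of probe 7277 first). The probes also differ in where they start and end, and the part of the differing bases in their ratios was not tested.

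COX2 7277 (A_44_P278113, chrM:7277-7336, plus): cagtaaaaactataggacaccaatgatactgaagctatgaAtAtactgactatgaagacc
COX2 7286 (A_44_P463069, chrM:7286-7345, plus): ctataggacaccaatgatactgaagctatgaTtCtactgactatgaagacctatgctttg

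The COX1 probe and a probe of the opposite strand share 52 bases as reverse complements, in capitals, and so match opposite strands of 1 stretch. Their median raw signals were 176400 and 137.7, and whether the latter came from antisense RNA was not tested.

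COX1 6402 (A_44_P493894, chrM:6402-6461, plus): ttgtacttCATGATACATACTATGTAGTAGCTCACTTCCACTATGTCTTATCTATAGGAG
Minus 6410 (A_44_P254466, chrM:6410-6469, minus): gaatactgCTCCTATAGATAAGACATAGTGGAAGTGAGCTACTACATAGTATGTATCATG

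In the large ribosomal RNA region, the member at 1530 shares 33 bases, in capitals, with a probe that the files name after the same GenBank record but leave unmapped. That probe is not one of the 47. It was found by a search for shared letters, and it is described after its values were seen.

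Large rRNA 1530 (A_44_P551965, chrM:1530-1589, plus): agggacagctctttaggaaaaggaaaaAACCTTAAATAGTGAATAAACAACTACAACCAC
Unmapped (A_44_P551963): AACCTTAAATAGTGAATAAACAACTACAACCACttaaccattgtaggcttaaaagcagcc

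The last 4 are minus-strand probe 15482, D-loop probe 15548 next to it, and a pair of minus-strand probes that passed the test in more than 1 area. The files place the 60 bases of the last over 63 positions.

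Minus 15482 (A_44_P271039, chrM:15482-15541, minus): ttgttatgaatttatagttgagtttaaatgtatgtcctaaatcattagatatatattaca
D-loop 15548 (A_44_P491144, chrM:15548-15607, plus): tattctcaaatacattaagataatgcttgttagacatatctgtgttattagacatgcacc
Minus 14429 (A_44_P125188, chrM:14429-14488, minus): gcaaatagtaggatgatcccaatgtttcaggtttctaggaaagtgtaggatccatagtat
Minus 12310 (A_44_P228236, chrM:12310-12372, minus): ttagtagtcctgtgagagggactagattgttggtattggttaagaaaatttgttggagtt

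Between 29089 and 38703 of 45018 spots per channel were well above background. The arrays were scanned in 2 sessions on 5 slides: slides 1 to 3 each held a nucleus accumbens and a prefrontal pair, and all hippocampal pairs were on slides 4 and 5 in the second session. Over the 28377 probes detected in all areas, the ratios of the dye-swapped arrays of a pair correlated with r between 0.31 and 0.71, except for nucleus accumbens pair 3 (r = 0.05) and hippocampus pair 2 (r = -0.01). Results were therefore also computed without those pairs. No member spot was saturated or marked as non-uniform on any array. Of the 104 probes with a mean level of 16 or more on the log2 scale, 19 were members.

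Probes of the mitochondrial genome differed between the strains in both directions, and within COX2 probes of 1 transcript were called in opposite directions. In the nucleus accumbens 47 members were tested: 4 were higher in WHP (0.136% of all 30217 probes tested were) and 1 was lower (0.116% of all probes), and 21 had an unadjusted p under 0.05. In the prefrontal medial cortex 3 of 46 members were higher (0.0626% of 28741 probes) and 0 were lower (0.0278%), and 14 had an unadjusted p under 0.05. In the hippocampus 5 of 46 were higher (0.147% of 34752) and 2 were lower (0.104%), and 20 had an unadjusted p under 0.05. In the mean of the 3 areas 6 of 46 were higher (1.35% of 28377) and 6 lower (1.50%). These calls are from limma over 9 pool pairs, with Benjamini-Hochberg adjustment over all detected probes and a threshold of 0.05. The median ratio of the members tested was -0.09, -0.08 and 0.12 in the nucleus accumbens, prefrontal medial cortex and hippocampus, where the median of all probes tested was 0.0009, 0.0015 and -0.0029.

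The calls within an area rested on few pools. Under limma with a mean-variance trend and a robust prior, 0 probes of the array passed in any area or in the mean, and 20, 13, 18 and 21 members had an unadjusted p under 0.05 there. The prefrontal count was 0 without prefrontal pair 2 or pair 3 (9 and 11 members at an unadjusted p under 0.05). The nucleus accumbens count was 3 without its pair 3, or without hippocampus pair 1 or 2. The hippocampal count was 2 without any 1 of its own pairs, and 4 without nucleus accumbens pair 2 or 3 or without prefrontal pair 2 or 3. Without the pairs of uncorrelated dye swaps, 1, 1 and 1 members passed in the 3 areas and 7 in the mean. Of the 12 probes called in the mean, 6 passed in 21 of 22 alternatives, all but the trend with a robust prior (adjusted p = 0.156 for each): COX2 7366, COX2 7525, D-loop 15548 and minus-strand probes 12310, 14429 and 15482.

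The 6 probes in the region of the small ribosomal RNA, which forms the small subunit of the mitochondrial ribosome, gave nearly the same ratio as each other in every pool pair. Their median was 0.09, -0.26 and -0.73 in nucleus accumbens pairs 1, 2 and 3, then -0.21, -0.06 and -0.27 in the prefrontal pairs, and 0.24, 0.21 and -0.02 in the hippocampal pairs. The medians of the pairs of 1 area thus differed by more than the 6 probes did within a pair. Nucleus accumbens pair 3 averages arrays that disagreed in sign for all 6 probes. Probe 154 gave -2.24 with WHP in Cy3 and 0.31 with WHP in Cy5, and probe 532 gave -1.51 and 0.12. The value of that pair can therefore not be read as a difference between pools. None of the 6 passed the test in any area or in the mean. All 15 comparisons between the 6 probes gave mean differences between 0.0004 and 0.039, and none passed an exact two-sided sign-flip permutation test over the 9 pool pairs (60 comparisons between members in all, Benjamini-Hochberg adjusted over the 60). Over the 9 pairs their ratios correlated with r between 0.981 and 0.999, given as a description, since overlapping probes share letters and all share the same arrays.

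In the large ribosomal RNA region the members did not move as 1. Probe 1289 had ratios of -0.95, -0.17 and -0.83 in the nucleus accumbens, -0.16, -0.37 and -0.61 in the prefrontal medial cortex, and -0.38, -0.17 and -0.20 in the hippocampus. It was lower in WHP in every pool pair, and the mean of the areas was -0.43 ± 0.08 (SE; adjusted p = 0.034, limma). That call was lost in 10 of 22 alternatives, among them leaving out any 1 of nucleus accumbens pair 3, prefrontal pair 2 or 3 or any hippocampal pair, with adjusted p between 0.080 and 0.111. Probe 1530 of the same record had ratios of -0.38, 0.37 and -0.43, then 0.36, 0.23 and -0.04, then 0.40, 0.66 and 0.42, and passed no test. The difference between the probes, 0.60 ± 0.13 (SD over 9 pool pairs), had the same sign in 9 of 9 pairs (exact permutation p = 0.00391, the smallest that 9 pairs allow; adjusted p = 0.0102).

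The unmapped probe of that record, which reaches further downstream than probe 1530, differed far more between the strains. Its ratios were 3.12, 3.24 and 2.58 in the nucleus accumbens, 3.31, 3.17 and 2.93 in the prefrontal medial cortex, and 3.03, 3.26 and 2.92 in the hippocampus. Every pool pair lay close to the next, and all 18 arrays were positive, from 2.47 to 3.49. The mean over the areas was 3.06 ± 0.07 (SE), an 8.36-fold higher signal in WHP (adjusted p = 1.139e-06, limma). It had the largest ratio in size of all probes tested in each area and in the mean. In the nucleus accumbens its WHP level was 17.83 ± 0.14 and its WLP level 14.85 ± 0.25 on the log2 scale (SD, n = 3 pools). It lay 2.89 ± 0.30 above the ratio of probe 1530 (SD over 9 pairs), although 33 of its 60 bases are the same. Whether the strains differ in sequence under this or any other probe was not tested, since no sequence of either strain was used here.

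ND2 and COX1 code for a subunit of complex I and the catalytic subunit of complex IV. The ND2 probes at 4159 and 4448 had mean ratios of 0.04 and 0.25 over the 9 pairs. Probe 4448 was positive in all 9 pairs and passed no test, with ratios of 0.065, 0.52 and 0.004 in the nucleus accumbens, 0.086, 0.096 and 0.18 in the prefrontal medial cortex, and 0.56, 0.46 and 0.27 in the hippocampus. Of its arrays 15 were positive and 3 negative. With WHP in Cy3 and Cy5 it gave -0.51 and 0.52 in nucleus accumbens pair 3, and 0.59 and -0.42 in prefrontal pair 1. Probe 4448 lay 0.21 ± 0.08 above probe 4159 (SD, 9 of 9 pairs; exact permutation, adjusted p = 0.0102). COX1 6402 was lower in WHP in every pool pair: -0.78, -0.30 and -0.33 in the nucleus accumbens, -0.43, -0.26 and -0.48 in the prefrontal medial cortex, and -0.43, -0.45 and -0.38 in the hippocampus. Its mean was -0.43 ± 0.05 (SE; adjusted p = 0.0046, limma). The dye orientation moved with this value: the mean was -0.02 on arrays with WHP in Cy5 (adjusted p = 0.874) and -0.83 on those with WHP in Cy3, and its part in the call was not tested. Such a gap between orientations was wider for plus-strand probes, with a median size of 0.36, than for minus-strand probes, with 0.16.

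COX2 codes for the subunit of complex IV that takes electrons from cytochrome c. Among the members, its 8 probes gave the clearest disagreement within a transcript. COX2 7366 had ratios of 0.81, 1.09 and 0.60 in the nucleus accumbens, 1.04, 0.67 and 0.76 in the prefrontal medial cortex, and 1.02, 1.02 and 0.96 in the hippocampus. COX2 7525 had 1.02, 0.95 and 0.55, then 1.06, 0.91 and 0.93, then 1.44, 1.46 and 1.40. Both were higher in WHP in 9 of 9 pool pairs, and the hippocampal values of 7525 lay above all its values in the other areas. In the mean of the areas 7366 was 0.88 ± 0.05 (SE; 1.85-fold, adjusted p = 2.098e-04) and 7525 was 1.08 ± 0.05 (2.12-fold, adjusted p = 4.883e-05, limma). Both passed in each area as well, with adjusted p between 9.902e-04 and 0.0261.

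The other 6 COX2 probes lay near or below 0 in the same hybridisations. Probe 7213 had ratios of -0.40, -0.13 and -0.62 in the nucleus accumbens, -0.24, -0.54 and -0.44 in the prefrontal medial cortex, and -0.19, -0.15 and -0.31 in the hippocampus. Probe 7585, whose first base follows the last base of 7525, had -0.43, -0.19 and -0.60, then -0.14, -0.45 and -0.38, then -0.11, -0.06 and -0.08. Both were lower in WHP in all 9 pairs, with means of -0.33 ± 0.05 and -0.27 ± 0.05 (SE; adjusted p = 0.015 and 0.021, limma). Their calls were lost in 6 and 10 of 22 alternatives. For 7213 these included leaving out prefrontal pair 3 or hippocampus pair 1 or 3 (adjusted p up to 0.060), and for 7585 leaving out prefrontal pair 2 or 3 or any hippocampal pair (up to 0.082). On arrays with WHP in Cy5 alone the mean of 7585 was -0.01 (adjusted p = 0.873). Probes 7059, 7277, 7286 and 7326 had means of -0.23, -0.20, -0.19 and -0.09 and passed no test. All 12 comparisons of 7366 or 7525 with these 6 probes passed, with differences between 0.98 and 1.42 and the same sign in 9 of 9 pairs (exact permutation, adjusted p = 0.0102 each). Probes 7326 and 7366, which share 20 bases, differed by 0.98 ± 0.07 (SD), while 7366 and 7525 differed by 0.20 ± 0.22 (adjusted p = 0.062, exact permutation).

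Probes 7277 and 7286, which differ at A7317T and A7319C, had ratios that differed by at most 0.024 in every pool pair, with a mean difference of 0.007 ± 0.012 (SD). Over the 9 pairs the ratios of 7366 and 7213 rose and fell together (r = 0.98, as a description of values that share arrays), with a gap of 1.22 ± 0.03. Its gap to the other 5 low probes had SDs between 0.047 and 0.104, widest for 7059, where it ran from 0.96 to 1.25. For 7525 the distance to 7213 was wider in range, from 1.07 to 1.71. A probe on the opposite strand outside the 47, which the files name after a beta-carotene dioxygenase on chr19, contains 32 bases of 7366 as reverse complement. Its mean ratio was -0.22 ± 0.04 (SE; adjusted p = 0.023), positive in 1 of 9 pairs. The dye orientation moved with the size of both high probes but not with the sign of their means. With WHP in Cy5 and Cy3, 7366 had means of 1.16 and 0.61 and 7525 means of 1.53 and 0.63. Of 18 arrays, 18 and 17 were positive. The exception was in nucleus accumbens pair 3, where 7525 gave -0.29 with WHP in Cy3 and 1.39 with WHP in Cy5.

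ATP6, a subunit of the ATP synthase channel, COX3, the remaining mitochondrial core subunit of complex IV, and ND5, a proton-pumping subunit of complex I, had 1 probe each, with mean ratios of 0.03, -0.03 and -0.09. None of them passed a test, and each had pools on both sides of 0. ATP6 8305 had ratios of -0.035, 0.062 and -0.30 in the nucleus accumbens, -0.053, 0.058 and 0.001 in the prefrontal medial cortex, and 0.25, 0.23 and 0.087 in the hippocampus. COX3 8715 had -0.23, 0.25 and -0.43, then -0.17, -0.056 and -0.077, then 0.24, 0.30 and -0.086 in the same order of areas. ND5 12852 had -0.31, 0.40 and -0.40, then -0.068, -0.34 and -0.23, then 0.22, 0.018 and -0.12. In all 3 genes nucleus accumbens pair 3 was lowest and a hippocampal pair or nucleus accumbens pair 2 highest. The arrays of nucleus accumbens pair 3 disagreed here too. With WHP in Cy3 and Cy5 they gave -0.86 and 0.26 for ATP6, -1.11 and 0.25 for COX3, and -0.79 and -0.01 for ND5. The shared low value can therefore not be read as a difference between pools. The 4 probes of Cytb, the mitochondrial subunit of complex III, had means of 0.03 at 14209, 0.19 at 14300, 0.14 at 14821 and -0.12 at 14965, and none passed. The brightest of them, 14965, had ratios of -0.34, 0.067 and -0.46 in the nucleus accumbens, -0.19, -0.18 and -0.15 in the prefrontal medial cortex, and 0.15, 0.12 and -0.083 in the hippocampus. Of the 6 comparisons among the 4 probes, 3 passed, with differences of up to 0.31 in size. Their median was -0.47 in nucleus accumbens pair 3 and 0.43 in hippocampus pair 1. The arrays of the former pair disagreed: 14300 gave -1.56 with WHP in Cy3 and 0.60 with WHP in Cy5, and 14209 gave -1.51 and 0.27. Probe 14965 was below 0 on both (-0.79 and -0.12). The gap between these medians can therefore not be read as a difference between pools.

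In the D-loop, the non-coding control region, probe 15548 had ratios of 1.19, 0.85 and 0.95 in the nucleus accumbens, 0.66, 0.63 and 0.60 in the prefrontal medial cortex, and 0.92, 0.92 and 0.80 in the hippocampus. All pools were higher in WHP, and the prefrontal values lay below those of both other areas. The mean was 0.84 ± 0.04 (SE; 1.79-fold, adjusted p = 4.883e-05), and each area passed with adjusted p between 0.0016 and 0.0138 (limma). This was a dim probe: its WHP level in the nucleus accumbens was 9.12 ± 0.27 and its WLP level 8.12 ± 0.12 (SD, n = 3 pools). On the other strand, just before it, probe 15482 had ratios of 0.64, 0.42 and 0.62, then 0.92, 0.51 and 0.31, then 0.74, 0.84 and 0.63. It was higher in WHP in all 9 pairs and on all 18 arrays, with a mean of 0.62 ± 0.06 (1.54-fold, adjusted p = 0.0017), and among single areas it passed in the hippocampus (0.74 ± 0.10, adjusted p = 0.036).

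Among the 18 minus-strand probes, 5 passed in the mean of the areas, 3 of them higher and 2 lower in WHP. Probe 14429, antisense to Cytb, had ratios of -0.62, -0.85 and -0.58 in the nucleus accumbens, -0.29, -0.65 and -0.64 in the prefrontal medial cortex, and -0.53, -0.59 and -0.47 in the hippocampus. It was lower on all 18 arrays, with a mean of -0.58 ± 0.05 (SE; 1.49-fold, adjusted p = 8.212e-04), and passed in the nucleus accumbens (adjusted p = 0.018) and the hippocampus (0.048, limma). Probe 6705 was lower as well: its ratios were -0.10, -0.28 and -0.03, then -0.11, -0.42 and -0.21, then -0.79, -0.53 and -0.42. The hippocampal values lay below all of its others, and its mean was -0.32 ± 0.05 (adjusted p = 0.013).

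Higher in WHP was probe 12310, antisense to ND5, with ratios of 0.55, 0.35 and 0.39 in the nucleus accumbens, 0.32, 0.32 and 0.32 in the prefrontal medial cortex, and 0.49, 0.55 and 0.32 in the hippocampus. Its mean was 0.40 ± 0.03 (SE; 1.32-fold, adjusted p = 8.212e-04), with 18 of 18 arrays positive, and it passed in the nucleus accumbens and the hippocampus (adjusted p = 0.026 and 0.018, limma). Probe 11915, also antisense to ND5, had ratios of 0.29, 0.16 and 0.36, then 0.16, 0.087 and 0.078, then 0.30, 0.23 and 0.096. It was higher in WHP in all 9 pairs, with a mean of 0.20 ± 0.03 (adjusted p = 0.015), a call lost in 7 of 22 alternatives, among them leaving out prefrontal pair 3 or hippocampus pair 1 or 2 (adjusted p up to 0.055). The remaining 13 minus-strand probes passed no test of the ratio, and their means lay between -0.19 and 0.18.

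Among those 13, probes 14823, 8960 and 9500 leaned towards WHP. Probe 14823, antisense to Cytb, was above 0 in 9 of 9 pairs, with 0.26, 0.013 and 0.13 in the nucleus accumbens, 0.15, 0.049 and 0.15 in the prefrontal medial cortex, and 0.16, 0.20 and 0.066 in the hippocampus. Probe 8960, downstream of the COX3 probe, had 0.20, 0.31 and 0.072, then 0.18, -0.074 and 0.097, then 0.17, 0.35 and 0.23 in the same order of areas. Probe 9500 had 0.37, 0.10 and -0.12, then 0.16, 0.12 and 0.076, then 0.41, 0.40 and 0.091. Each of these last 2 was above 0 in 8 of 9 pairs. Probes 6108 and 6900 leaned the other way. Probe 6108 had -0.19, -0.34 and 0.091, then -0.013, -0.26 and -0.26, then -0.36, -0.25 and -0.16. Probe 6900 had -0.35, -0.43 and -0.23, then 0.11, -0.25 and -0.18, then -0.070, -0.037 and -0.078. Both were below 0 in 8 of 9 pairs. The files place only 18 bases of probe 6900 on chrM, at a position that does not overlap COX2 7277. Its letters nevertheless share a run of 36 bases with COX2 7277 as reverse complement, so its placement and its letters disagree. The other 8 probes of the strand stayed close to 0, with means between -0.02 and 0.06. Of these, 4 carry names of nuclear mRNAs: 516 (a 3 beta-hydroxysteroid dehydrogenase isomerase) ranged from -0.25 to 0.23, 3285 (Tpm3) from -0.17 to 0.22, 4473 (p28) from -0.11 to 0.19 and 10068 (carboxyl methyltransferase) from -0.05 to 0.06. The ratios of 6410, 7869, 8248 and 8298 lay between -0.11 and 0.25 over all their pools.

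Of 9 comparisons between probes of opposite strands that share letters, 2 passed, and the median difference was 0.08 in size. COX1 6402 was at -0.43 and its antisense partner 6410 at 0.06, a difference of 0.49 ± 0.19 (SD) with the same sign in 9 of 9 pairs (exact permutation, adjusted p = 0.0102) and no correlation over the pairs (r = -0.04). ND2 4448 and minus-strand 4473 share 35 bases and differed by 0.23 ± 0.22 in size (adjusted p = 0.043, exact permutation). Probe 4473 was dim, with a median raw signal of 76.8 against 50000 for 4448. It was well above background on 14 (WHP) and 15 (WLP) of 18 arrays. Minus-strand 6410 and 8298 were dim as well (137.7 and 77.8), and the part of low signal in these comparisons was not tested. ATP6 8305 and its partner 8298, with 53 shared bases, differed by 0.01 ± 0.15, and Cytb 14821 and its partner 14823, with 58, by 0.007 ± 0.27 in size; neither passed. In the small ribosomal RNA region, minus-strand probe 516 did follow plus-strand probe 510 over the 9 pairs (r = 0.80, as a description). This pair shares 54 bases, of which 53 are equal, and differs at G544A (chrM coordinates, the base of probe 510 first).

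The strain difference was not shown to depend on the area for any member. Of the 3 contrasts between areas, 0 members and 0% of all probes (0 of 28502, 29842 and 28588) passed in limma. At an unadjusted p under 0.05 there were 2 of 46 members for the prefrontal medial cortex minus the nucleus accumbens, 14 for the hippocampus minus the nucleus accumbens and 6 for the hippocampus minus the prefrontal medial cortex. The lowest adjusted p of a member was 0.577. On arrays with WHP in Cy5 alone, COX2 7525 passed for the hippocampus minus the prefrontal medial cortex (0.89 ± 0.07, SE; adjusted p = 0.027), and no member did with WHP in Cy3. For the hippocampus minus the nucleus accumbens, 26 of 28 plus-strand members had a positive difference, with a median of 0.29. All hippocampal arrays were scanned in their own session, so area and session cannot be told apart in any contrast with the hippocampus. Without nucleus accumbens pair 3 the median ratio of the members in that area was 0.01 in place of -0.09.

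Levels of signal also differed by area. A level is the mean of both channels on the log2 scale, after making the distribution equal across arrays. Plus-strand members had area means between 6.41 and 17.66, with medians of 16.72, 16.60 and 16.64 in the nucleus accumbens, prefrontal medial cortex and hippocampus. Minus-strand members lay between 6.53 and 13.95, with medians of 8.31, 7.76 and 7.80, and the median of all detected probes was 8.35, 8.49 and 7.94. These ranges are given side by side, since probes differ in how brightly they bind. Probe 15482, next to D-loop probe 15548, was the brightest of the minus strand, with 13.95 ± 0.20, 13.52 ± 0.26 and 13.62 ± 0.10 in the 3 areas (SD, n = 3 pool pairs).

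Between prefrontal medial cortex and nucleus accumbens, whose arrays shared slides and session, 17 of 18 minus-strand members were lower in the prefrontal medial cortex and 0 higher, with a median difference of -0.53. Among all 28502 probes 26.1% were lower and 25.1% higher, with a median of -0.005. The antisense partner of Cytb at 14823 differed by -1.16 ± 0.14 (SE; adjusted p = 1.277e-04), probe 8960 by -1.11 ± 0.06 (adjusted p = 3.003e-06) and probe 14429 by -0.90 ± 0.11 (adjusted p = 1.499e-04, limma). Probe 11915 had -0.30 ± 0.12 and missed the threshold (adjusted p = 0.055). Of 28 plus-strand members, 3 were higher (Cytb 14821 and 14965 and ATP6) and 5 lower (small ribosomal RNA probes 485, 510 and 532 and large ribosomal RNA probes 1289 and 1530), with a median of -0.03. Within slides 1, 2 and 3 the minus-strand median was -0.53, -0.38 and -0.75, with 18, 17 and 18 of 18 probes below 0. With levels centred on each array's median and no equalising step, 8 of the 18 passed, all 18 estimates stayed below 0 and 0 plus-strand members passed in either direction, with 14 of the minus-strand members at an unadjusted p under 0.05.

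Cell types moved with this comparison, and their part in it was not tested. The summed log2 level of 8 oligodendrocyte markers was between 17.16 and 17.38 in the nucleus accumbens and between 16.24 and 16.53 in the prefrontal medial cortex, while 7 neuron markers lay between 16.01 and 16.06 and between 16.63 and 16.73. Fewer cells of a type and less RNA per cell cannot be told apart in tissue. The 8 markers of striatal tissue, to which the accumbens belongs, lay between 14.65 and 15.38 there, between 14.42 and 15.15 in the prefrontal medial cortex and between 11.86 and 12.39 in the hippocampus. The prefrontal samples thus held striatal marker RNA at levels that overlapped those of the accumbens samples.

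The hippocampus was scanned in its own session, so area and session cannot be told apart in its levels. Against the nucleus accumbens, 11 members were higher (35.9% of all 29842 probes were) and 26 lower (40.0%), and all 16 minus-strand members that passed were lower. Against the prefrontal medial cortex 10 were higher (35.2% of 28588) and 16 lower (38.4%). There 2 minus-strand members were higher and 8 lower of 18, and 8 plus-strand members were higher and 8 lower of 28. Probes of 1 transcript disagreed here: for the hippocampus minus the nucleus accumbens, Cytb differed by -1.01 ± 0.11 at 14209, -0.69 ± 0.15 at 14300, 0.36 ± 0.08 at 14821 and 0.58 ± 0.07 at 14965 (SE; adjusted p up to 0.0034, limma). The difference thus went from negative near the 5′ end to positive near the 3′ end of the transcript. The small ribosomal RNA probes went in both directions without such an order. Probes 154 and 485 differed by -0.68 ± 0.07 and -0.20 ± 0.04, and probe 510 by 0.18 ± 0.05 (adjusted p = 1.222e-05, 0.0016 and 0.014, limma). Probes 418, 465 and 532 had 0.07, -0.08 and -0.07 and did not pass.

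Nuclear genes that serve the mitochondrial genome were counted in the same way, beside 1.35% of all probes higher and 1.50% lower in the mean of the areas. Of 47 listed genes for the upkeep, transcription and RNA handling of mitochondrial DNA, 43 were measured in all areas: 0 passed in any single area, and 2 were lower in WHP in the mean. These were the replicative helicase Twnk (-0.15 ± 0.03, SE; adjusted p = 0.033) and Angel2 (-0.17 ± 0.02, adjusted p = 0.0099, limma). The median of the list was 0.01, and the lowest adjusted p in a single area was 0.104. Among 86 measured nuclear genes of the respiratory chain and ATP synthase, 1 was lower in the mean, the complex I subunit Ndufa12 (-0.16 ± 0.03, adjusted p = 0.025), 0 were higher and the median was 0.02.

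Marker genes of other cell types differed between the pools of a pair. The median ratio of 8 meningeal and fibroblast markers was 1.31, 2.85 and -1.07 in the nucleus accumbens pairs, and that of 8 oligodendrocyte markers was -0.54, 0.27 and -0.30. In the hippocampus the oligodendrocyte median was 0.37, 0.57 and 0.20, and that of 7 choroid plexus and ependyma markers 1.75, 0.15 and 0.61. None of these markers passed a test of the ratio in an area. The plus-strand members had a median of -0.05, 0.06 and -0.43 in the nucleus accumbens pairs and 0.24, 0.21 and -0.02 in the hippocampal pairs, and the part of cell composition in it was not tested.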

How the data were processed

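RNA pools were hybridised to 18 two-colour arrays. Per the file headers, the authors' scanner software gave a mean and a background intensity for each spot and channel, and these were the input here. The deposited value table holds log2 ratios whose normalization is not given in the sources used here. It was compared with the scanner ratios and used as an alternative. Each array was corrected with normexp (offset 50) and loess in limma 3.58.1 (R 4.3.3), with control spots at weight 0 and non-uniform spots dropped. Ratios were turned to WHP over WLP, spots of a probe were averaged, then both dye orientations of a pair, and the 9 pairs were fitted with 1 coefficient per area (lmFit, eBayes). A probe was tested where it was well above background on at least 4 of 6 arrays of an area in either strain, and p-values were adjusted with Benjamini-Hochberg over all tested probes (threshold 0.05). Levels were the mean log2 signal of both channels after quantile normalization between arrays. The script was tested on simulated data. Full values are given for each member past a test, for the brightest sense probe of a transcript and for antisense probes, the weakest of these by range. The members and lists were chosen with earlier results of these data known. Alternatives changed the background step, the normalization, the filters, the variance model, the dyes, the block and the pool pairs, 1 at a time. Ratios of same-numbered pools correlated across areas with r between -0.38 and 0.17, so the numbers were not used as pairs. The number of arrays and pools limits the precision.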

Additional observations from a re-analysis of the deposited data

Results flagged for a closer look

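The ratio of COX1 6402 (A_44_P493894) in nucleus accumbens pair 1 was -0.7817, farther from the other 8 pool pairs than their spread allows by Dixon's criterion at the 95% level. The next lowest value was -0.48, in prefrontal pair 3. About 1 in 20 groups of values is marked in this way by chance.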

How the results depend on the processing

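Direction was kept in every alternative run for the mean ratios of the 12 called probes, while the counts within areas moved. With the scanner's processed signals, 3 members passed in the hippocampus, the prefrontal median was -0.1325 and 3 plus-strand members were lower in prefrontal level. Without background subtraction 5 passed in the prefrontal medial cortex. With median centring and no loess the hippocampal median was -0.0145, the level contrasts (prefrontal with accumbens, hippocampus with accumbens, hippocampus with prefrontal) gave 8, 16 and 9 calls, 8 minus-strand members were lower in prefrontal level, and 0 plus-strand members were lower and 0 higher. The deposited value table gave 3 calls in the hippocampus. With the replicate number as a block, 2, 1 and 3 members passed in the nucleus accumbens, prefrontal medial cortex and hippocampus. With a trend and a robust prior in limma, 0, 0, 0 and 0 passed in the areas and the mean (20, 13, 18 and 21 at an unadjusted p under 0.05). With each area fitted alone, limma called 0, 0 and 3 (12, 21 and 25 unadjusted).

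With WHP in Cy5 alone, 5 passed in the prefrontal medial cortex and 1 difference between areas did, and the medians were 0.1111, -0.1386 and 0.2497. With WHP in Cy3 alone, limma called 2, 0 and 3 (26, 11 and 17 unadjusted), and the prefrontal and hippocampal medians were -0.0453 and -0.0087. Chosen after seeing the data, leaving out the 2 pairs of uncorrelated dye swaps gave 1, 1 and 1 calls in the areas and 7 in the mean. The first scan session alone, also chosen then, gave 1 and 0 calls (15 and 11 unadjusted, limma) in the nucleus accumbens and prefrontal medial cortex, and 3 plus-strand members lower in level.

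Leaving out 1 pool pair gave 3 to 7 calls in the nucleus accumbens, 0 to 3 in the prefrontal medial cortex, 2 to 7 in the hippocampus, 8 to 17 in the mean and 0 for differences between areas. The level contrasts gave 22 to 25, 31 to 37 and 21 to 27 calls, with 14 to 18 minus-strand members lower, 4 to 6 plus-strand members lower and 2 to 4 higher. The medians ranged from -0.1671 to 0.0133, -0.0806 to -0.0546 and 0.0777 to 0.1681. The cause of these changes was not tested, beyond the fewer arrays or pools in those that leave some out. Of the 9 correlations between same-numbered pools, 2 were over 0.1, and the lowest was -0.38.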
